A study of Mus musculus with 20 samples.

Results

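The genes described here encode the proteins of the cytosolic ribosome. They were taken from the table of 24795 genes as every row whose symbol starts with Rpl, Rps or Rplp followed by a number and at most a short suffix, which leaves out pseudogenes marked as such and the ribosomal S6 kinases. The pattern matched 84 rows: 49 genes of the large subunit, 32 of the small subunit and 3 of the P stalk (Rplp0, Rplp1 and Rplp2). All 84 symbols were found in the GENCODE M21 annotation, on 19 chromosomes, with 14 of them on chromosome 7. That annotation lists 82 as protein coding, Rpl32l as a processed pseudogene and Rps4l as a transcribed processed pseudogene. The ribosomal protein genes Rpsa, Fau and Rpl36al have symbols outside the pattern and are given separately.

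Transcripts were measured by RNA sequencing in 20 mouse libraries. The groups were 7 libraries of Apc Min material with a control treatment, 6 of Apc Min material with DM-aKG treatment, and 7 of wild-type (WT) material with no treatment. Apc Min is a germline nonsense allele of Apc, a negative regulator of Wnt signalling, and mice with it grow adenomas of the intestine. The treatment, DM-aKG (dimethyl alpha-ketoglutarate), enters cells and is cleaved there to a TCA cycle metabolite. The labels give every library an organoid medium and a medium low in glutamine. They name intestinal organoids and primary cells in some fields and tissue in the titles, and no age or dose. Because the WT libraries are listed as untreated, genotype and control treatment cannot be told apart in the comparison of control Apc Min with WT. Whether each library stands for its own animal or culture is not in the labels, and the p-values therefore cover only library-to-library spread, which may be technical.

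A ribosome holds 1 copy of nearly every ribosomal protein, and the proteins of both subunits are made in matched amounts and assembled on ribosomal RNA in the nucleolus. Their mRNAs are among the most abundant in a growing cell. Most begin with a C and a run of pyrimidines, the 5′ terminal oligopyrimidine (TOP) motif, through which mTOR signalling and LARP1 control their translation and stability. Myc, a Wnt target in the intestine, is known to drive ribosome production. A few members have paralogs used in particular tissues, such as Rpl3l in striated muscle and Rpl10l and Rpl39l in testis.

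The values are RPKM (reads per kilobase of gene, scaled to the mapped reads of the library), a unit inferred from the table. Summed RPKM was 277634 to 369409 per library, and the spacing of low values put the depth at an estimated 21.3 to 29.3 M reads. Of the 84 genes, 80 had at least 1 RPKM in at least 6 libraries and were tested together with all other genes passing that filter, 12433 in total. Differences are of mean log2(RPKM + 1), given with their standard error (SE), and a gene was called at a Benjamini-Hochberg adjusted p under 0.05 over all 12433 genes from limma, 2-sided. The 4 genes below the filter were Rpl10l, at 0 in all 20 libraries, Rpl3l (0 to 0.0977 RPKM), Rpl39l (0 to 0.174 RPKM) and Rpl32l (0.263 to 1.33 RPKM). Markers of other cell types were present in every group although label fields name organoids: the summed RPKM of 8 smooth muscle genes was 402 to 1703 over the 20 libraries, and that of 4 leukocyte genes was 13.3 to 73.5.

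RefSeq promoter windows (GRCm38.p6) were matched for 63 of the 84 genes and searched for the TOP-like run, a C followed by at least 4 pyrimidines. The bases from an annotated start onward were such a run, which could also begin before the start, in 14 of 63 genes (22.2%). This was so in 3.01% of all 27025 genes with a window. Within 20 bases either side of the start, on the transcribed strand, the run was present in 50 of 63 (79.4%), against 49.9% of all genes. A gene was counted if any of its annotated starts met the rule, whatever its number of starts. The 63 genes include Rpl10l, Rpl3l, Rpl39l and Rpl32l, which were below the filter. The 8 windows below, 20 bases before and 20 from the annotated start onward, show genes to which later values refer, with the runs in capitals. Rps6 and Rps21 carry the run across the start, Rps27 with Rps27l and Rpl22 with Rpl22l1 are pairs of a core gene and its paralog, and Rpl34 and Rpl7l1 are genes that did not follow the others across libraries.
Rps6: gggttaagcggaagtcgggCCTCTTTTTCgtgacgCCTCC
Rps21: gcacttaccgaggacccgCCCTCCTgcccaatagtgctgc
Rps27: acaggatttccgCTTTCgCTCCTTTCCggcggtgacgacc
Rps27l: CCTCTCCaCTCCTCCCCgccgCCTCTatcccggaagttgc
Rpl22: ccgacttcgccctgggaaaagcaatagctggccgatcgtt
Rpl22l1: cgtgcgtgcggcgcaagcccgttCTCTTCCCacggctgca
Rpl34: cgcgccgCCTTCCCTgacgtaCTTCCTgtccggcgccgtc
Rpl7l1: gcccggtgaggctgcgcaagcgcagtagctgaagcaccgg

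On GRCm38.p6 these windows are chr4:86857348-86857387 on the minus strand for Rps6, chr2:180257359-180257398 on the plus strand for Rps21, chr3:90213629-90213668 on the minus strand for Rps27 and chr9:66946066-66946105 on the plus strand for Rps27l. Those of Rpl22 (chr4:152325706-152325745, plus), Rpl22l1 (chr3:28805488-28805527, plus), Rpl34 (chr3:130730379-130730418, minus) and Rpl7l1 (chr17:46782637-46782676, minus) follow. Each covers the promoter end and the first transcribed bases of its gene by the RefSeq start, which lay 45 bases from the GENCODE gene start for Rps6, 72 for Rpl22l1, 16 for Rpl22 and Rpl7l1, 3 for Rps27, 2 for Rps21 and 0 for Rps27l and Rpl34. In the Rps27 window the run crosses the start, whereas in the Rps27l window the runs stand on both sides of it. No such run stands in the windows printed for Rpl22 and Rpl7l1, but Rpl22 has one near another annotated start and is counted among the 50 genes.

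In the whole promoter window (250 bases before to 50 after the start, both strands), the letters CCGGAAG of an ETS site were found in 39.7% of the 63 genes and 9.93% of all genes. AAGATGGC, the core of a YY1 site, was in 9.52% of the 63 and 3.19% of all genes. The E-box CACGTG bound by Myc was in 9.52% against 8.09%, and CTTTGAT of the TCF/LEF factors was in 0 of the 63 genes against 4.29%. TATAAA in the 50 bases before the start was in 1.59% against 3.15%. The 46 tested genes with a TOP-like run near the start had a median difference of 0.68 between control Apc Min and WT, and the 13 without had 0.71.

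By level, the genes spanned a wide range although their proteins are used in equal numbers. The mean RPKM over 20 libraries had a median of 278.6 over the 84 genes, where the median of all genes passing the filter was 6.92. There were 54 genes over 200 RPKM, 16 between 60 and 200, and 14 under 60, of which 4 were under 1. Rpl41, whose coding sequence of 75 bases is the shortest of the family, was highest with 715 RPKM. It was followed by Rpl28 (663 RPKM), Rplp1 (609.9 RPKM), Rps26 (570.0 RPKM) and Rplp0 (532 RPKM). These levels overlap between libraries, and the order of these neighbours is not separated by their spread: in control Apc Min, Rpl41 was 851 ± 166 RPKM (SD, n = 7) and Rpl28 750 ± 104 RPKM.

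The lowest tested core genes were Rpl34 (3.98 RPKM), Rpl30 (8.06 RPKM), Rpl29 (9.94 RPKM), Rps15a (25.1 RPKM) and Rpl21 (35.9 RPKM). For these the table also holds near-identical copies. Aligning coding sequences to the GENCODE M21 transcripts found at least 1 copy of 95% identity over 80% of the length for 76 of 82 genes. The median was 5 copies, the most was 57 for Rpl21, and 97.0% of the 563 copies were annotated as pseudogenes. Of the 563 copies, 19 come from genes that are rows of the table. Rpl34-ps1 had 249 RPKM beside 3.98 for Rpl34. Rps27rt had 310 RPKM beside 164 for Rps27, and Rpl14-ps1 191 RPKM beside 167 for Rpl14. How reads matching several places were counted is not given in the sources used here, so the split between a gene and its copies is uncertain. Each of these copies rose in control Apc Min against WT, by 0.75 ± 0.17 for Rpl34-ps1 (adjusted p = 0.000978, limma), 0.74 ± 0.19 for Rps27rt (adjusted p = 0.00302) and 0.83 ± 0.11 for Rpl14-ps1 (adjusted p = 3.83e-06).

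Summed, the 84 genes made up 4.92% ± 0.323 (SD, n = 7) of a library's summed RPKM in WT, 8.32% ± 1.24 (n = 7) in control Apc Min and 7.34% ± 0.857 (n = 6) in DM-aKG Apc Min. WT libraries lay between 4.42% and 5.43%, with a median of 4.83%. Control libraries ran from 6.26% to 10.5% (median 8.40%), and DM-aKG libraries from 5.73% to 8.19% (median 7.60%). No WT library reached the lowest Apc Min library, whereas the ranges of the 2 Apc Min groups overlapped between 6.26% and 8.19%. Control replicate 3 stood highest with 10.5% and held the highest value of 63 of the 80 tested genes. DM-aKG replicate 6 was the lowest Apc Min library with 5.73%.

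**Figure D1:**
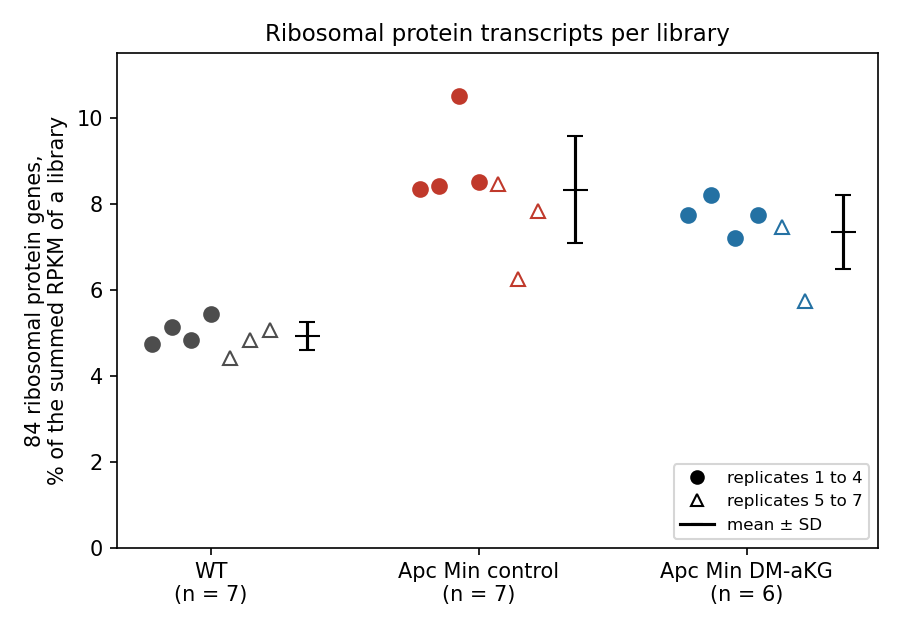
Share of the summed RPKM of each library taken by the 84 ribosomal protein genes (vertical axis, percent, from 0), for WT (n = 7), control Apc Min (n = 7) and DM-aKG Apc Min (n = 6). Each symbol is a library, circles for replicates 1 to 4 and triangles for 5 to 7, with bars at mean ± SD. All WT libraries (4.42 to 5.43%) lie below all Apc Min libraries (5.73 to 10.5%).

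Comparing control Apc Min with WT asks how the genotype, with the control treatment, goes with ribosomal protein mRNA. Of the 80 tested genes, 73 rose and 0 fell, against a background of 43.2% of all genes higher and 15.7% lower. At an unadjusted limma p under 0.05 the counts were 74 and 0. The median difference was 0.68 for the 80 genes and 0.20 for all genes tested, and the range was -0.20 to 1.11. TMM scaling moved the median of all genes by -0.21 and their calls from 5368 higher and 1948 lower to 3222 and 3468. The median of the 80 genes was then 0.43, with 63 called higher and 2, Rps27l and Rps4l, called lower. Quantile normalization gave 0.81 and 75 called higher (3239 of all genes). In 55 genes every control library lay above every WT library, against 20.4% of all genes. In bulk RNA, a change in the cells that make up a sample cannot be told apart from a change of RNA per cell.

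In the small subunit 28 of 32 genes rose, and in the large subunit 42 of 45, with medians of 0.65 and 0.71. Rps6, the small subunit protein phosphorylated by S6 kinases, ran from 198 to 247 RPKM in WT (median 218) and from 336 to 441 RPKM in control (median 370.5). The groups did not overlap, and Rps6 rose by 0.79 ± 0.09 (SE, limma adjusted p = 4.09e-07). Rps3, which lines the mRNA entry channel, had 105 to 143 RPKM in WT and 181 to 262 RPKM in control, a rise of 0.74 ± 0.11 (adjusted p = 7.01e-06). Rps19, whose loss causes Diamond-Blackfan anaemia in people, rose by 0.60 ± 0.12 (adjusted p = 0.000399), and Rps27a, made as a fusion with ubiquitin, by 0.74 ± 0.16 (adjusted p = 0.000451).

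Among large subunit genes, Rpl7 had the second largest difference. Its WT libraries lay between 303 and 391 RPKM (median 342) and its control libraries between 521 and 884 RPKM (median 688). They were fully apart, and the rise was 1.07 ± 0.13 (adjusted p = 1.19e-06, limma). Rpl5 and Rpl11 carry 5S ribosomal RNA into the large subunit and bind Mdm2 when assembly is disturbed. Rpl5 went from 130 to 186 RPKM in WT (median 163) to 230.1 to 368 RPKM in control (median 290), a rise of 0.86 ± 0.11 (adjusted p = 1.46e-06). Rpl11 rose by 0.84 ± 0.11 (adjusted p = 4.14e-06), from 211 to 371 RPKM in the medians. Rpl3, part of the peptidyl transferase centre, rose by 0.82 ± 0.11, Rpl10a by 0.85 ± 0.12 and Rpl36a by 0.75 ± 0.10 (adjusted p = 3.32e-06, 4.07e-06 and 4.08e-06). Rpl21 had the largest difference, 1.11 ± 0.40, and the largest SE (adjusted p = 0.0228). Without WT replicate 1 or 5 its adjusted p was 0.0555 or 0.0568, and with TMM scaling 0.0692. Its WT libraries ran from 4.59 to 36.6 RPKM, overlapping the control range of 18.8 to 58.1 RPKM, and it has 57 near-identical copies.

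The P stalk, which recruits elongation factors to the ribosome, rose in all 3 genes. Rplp0, its base, went from 333 to 412 RPKM in WT (median 369) to 485 to 816 RPKM in control (median 676), without overlap and with a rise of 0.83 ± 0.12 (adjusted p = 7.14e-06, limma). Rplp1 rose by 0.53 ± 0.19 (adjusted p = 0.0235) and Rplp2 by 0.49 ± 0.20 (adjusted p = 0.0408), both with overlapping groups. Neither call held under TMM or median-of-ratios scaling. Rplp1 had an adjusted p of 0.0513 to 0.0557 without WT replicate 5 or control replicate 1, 3 or 4, and Rplp2 of 0.0520 to 0.0936 without WT replicate 4, 5, 6 or 7 or control replicate 1, 2, 3 or 4. Of Rplp2, WT libraries had 157 to 277 RPKM and control libraries 199 to 410 RPKM.

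The 7 tested genes that were not called in this comparison were Rps4l, Rps27l, Rpl34, Rpl7l1, Rps29, Rpl22l1 and Rps21. They include the 4 tested paralogs of the family. Rps29 (0.36 ± 0.19, adjusted p = 0.113, limma) and Rps21 (0.43 ± 0.20, adjusted p = 0.0654) were core genes with positive but uncalled differences. WT libraries of Rps21 had 84.9 to 137 RPKM and control libraries 95.1 to 213 RPKM, with the higher values of both groups in replicates 1 to 4.

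**Figure D2:**
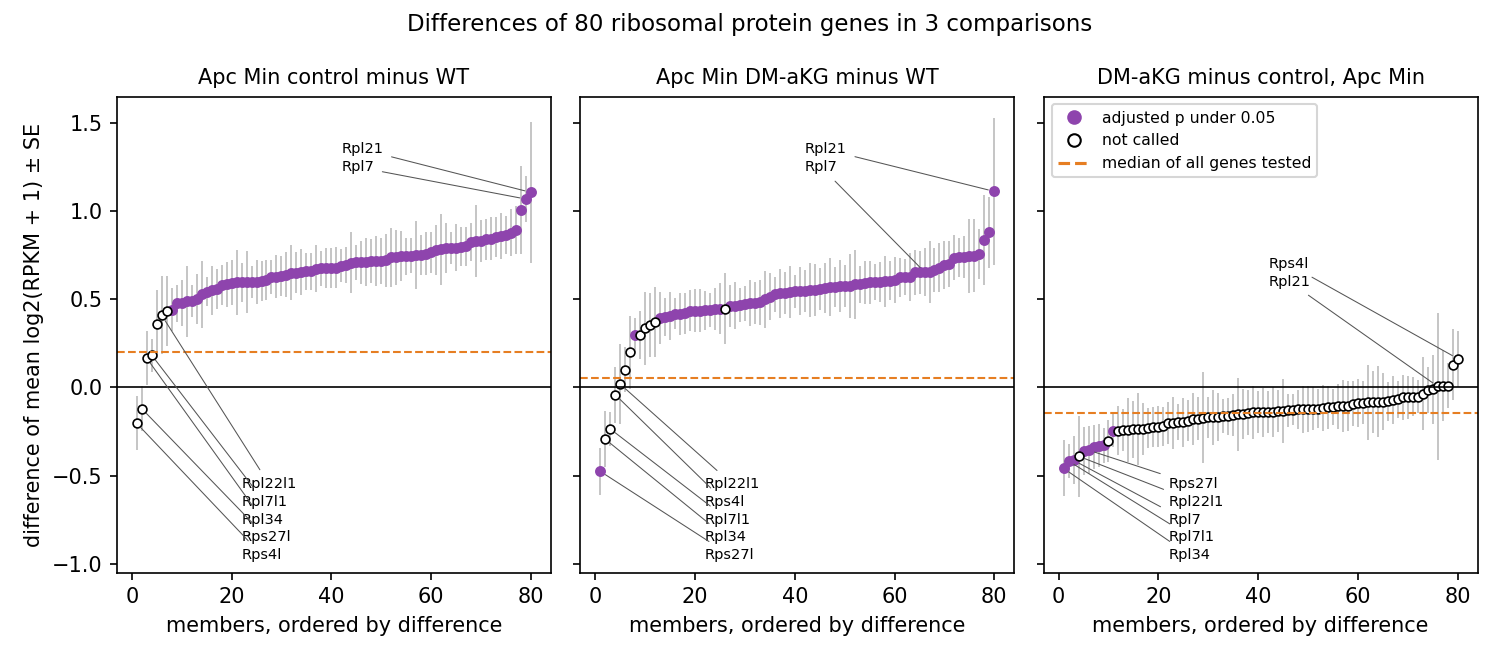
Difference of mean log2(RPKM + 1) for the 80 tested ribosomal protein genes in 3 comparisons, each ordered from lowest to highest (horizontal axis), with grey bars at ± SE. Filled points were called by limma at an adjusted p under 0.05, and the dashed line is the median of all 12433 genes. Most points lie above that median in both comparisons with WT (medians 0.68 and 0.55), with Rps4l, Rps27l, Rpl34 and Rpl7l1 below it in both and Rpl22l1 below it with DM-aKG, and they lie around it (-0.14) in DM-aKG against control, where TMM scaling turns the median of the 80 genes to 0.06 and median-of-ratios scaling to 0.05.

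DM-aKG Apc Min libraries were also set beside WT. Of the 80 genes, 68 rose (background 21.9%) and 1 fell (background 17.3%), with a median difference of 0.55 against 0.05 for all genes. The 68 genes had all been called higher in control Apc Min as well. Both comparisons use the same WT libraries, so this is not a second independent count. In 20 genes every DM-aKG library lay above every WT library (background 9.36%), and 1 gene, Rpl7l1, lay wholly below (background 7.79%). The 5 genes called only in control were Rpl38, Rpl41, Rplp1, Rplp2 and Rps2, and of these Rpl41 and Rps2 were also called in the direct comparison of the Apc Min groups, while the other 3 were not. The gene that fell was Rps27l, joined by Rpl7l1 after TMM, median-of-ratios or quantile scaling. With replicates 5 to 7 only, 3 WT against 2 DM-aKG libraries, no gene was called.

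Rpl5 had the smallest adjusted p here: its DM-aKG libraries lay between 209.5 and 306 RPKM (median 275), above all WT libraries (130 to 186 RPKM), and the rise was 0.74 ± 0.11 (adjusted p = 6.95e-05, limma). Rpl10a ran from 227 to 358 RPKM with DM-aKG and from 167 to 210 RPKM in WT, a rise of 0.74 ± 0.12 (adjusted p = 0.000136). Rpl4, which lines the exit tunnel, rose by 0.63 ± 0.10 (adjusted p = 0.000159), with 437 to 589.7 RPKM against 295 to 390 RPKM in WT. Rpl23, another Mdm2-binding protein, rose by 0.60 ± 0.10 (adjusted p = 0.000193), Rps6 by 0.55 ± 0.09 (adjusted p = 0.000203) and Rpl32 by 0.74 ± 0.13 (adjusted p = 0.000233). Rpl4, Rpl23 and Rpl32 had no overlap with WT, while the lowest DM-aKG value of Rps6, 246 RPKM in replicate 6, fell just inside the WT range.

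The direct comparison of DM-aKG with control in Apc Min gave small differences. No gene of the 80 was called higher (background 5.91%) and 9 were called lower (background 27.6%). At an unadjusted limma p under 0.05 the counts were 0 and 10. The median difference was -0.14 for the 80 genes and -0.14 for all genes tested, so the family lay where the middle of all genes lay. In no gene were the groups fully apart (background 0.732% higher and 8.19% lower). The direction depended on scaling: the median of all genes moved by 0.17 with TMM, 0.16 with median-of-ratios scaling and 0.16 with quantile normalization. The median of the 80 genes then became 0.06, 0.05 and -0.20, with 0, 0 and 17 genes called lower (1644, 1718 and 1849 of all genes). The split of calls over all genes changed as well, from 735 higher and 3432 lower to 1630 and 1644 with TMM.

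The 9 genes called lower were Rpl34, Rpl7l1, Rpl7, Rps2, Rps27l, Rpl41, Rpl27, Rpl15 and Rps6. Of these, 6 (Rpl7, Rps2, Rpl41, Rpl27, Rpl15 and Rps6) had risen in control against WT, a comparison that shares the control libraries. Rpl15, needed early in large subunit assembly, ran from 77.0 to 112 RPKM in control (median 91.0) and from 56.0 to 82.4 RPKM with DM-aKG (median 75.0). It fell by 0.33 ± 0.10 (adjusted p = 0.0162, limma), and WT libraries had 52.1 to 64.7 RPKM. Rpl7 had 357 to 595 RPKM with DM-aKG (median 578) and 521 to 884 RPKM in control, and fell by 0.41 ± 0.14 (adjusted p = 0.0243). Rpl7l1, the paralog of Rpl7, had 9.75 to 12.7 RPKM with DM-aKG and 12.03 to 21.3 RPKM in control, and fell by 0.42 ± 0.10 (adjusted p = 0.00263).

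Rpl27 fell by 0.33 ± 0.12 (adjusted p = 0.0389, limma), with 146 to 225 RPKM in control and 112 to 170.4 RPKM with DM-aKG. Rpl41 fell by 0.34 ± 0.13 (adjusted p = 0.0458), with 637.5 to 1095 RPKM in control and 546 to 747 RPKM with DM-aKG. Rpl34 had 3.66 to 6.01 RPKM in control and 1.97 to 4.48 RPKM with DM-aKG and fell by 0.46 ± 0.16 (adjusted p = 0.0307). Its copy Rpl34-ps1, at far higher RPKM, was not called (-0.23 ± 0.18, adjusted p = 0.331). Rps2 fell by 0.36 ± 0.14, Rps27l by 0.36 ± 0.13 and Rps6 by 0.24 ± 0.09 (adjusted p = 0.0476, 0.0476 and 0.0479). All 9 calls were lost under TMM and under median-of-ratios scaling, and in a fit of the 2 Apc Min groups alone only Rpl7l1 and Rpl15 were called. Leaving out single libraries gave 2 to 10 genes, with 5 or fewer without WT replicate 3 (5) or 6 (5), without control replicate 1 (4), 2 (3), 3 (3) or 4 (3), and without DM-aKG replicate 3 (4), 4 (5), 5 (3) or 6 (2).

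Across the 3 group means, 74 of the 80 genes had the order WT, DM-aKG, control from low to high. Rpl21 and Rps27 were highest with DM-aKG, Rpl34 and Rpl7l1 were lowest with DM-aKG and highest in control, Rps27l was highest in WT and lowest with DM-aKG, and Rps4l was highest in WT and lowest in control. The share of all genes with the order of the 74 is not given here. Medians of all genes went the same way: 0.20 for control against WT, 0.05 for DM-aKG against WT and -0.14 between the Apc Min groups. These means are of RPKM as deposited, and the places of DM-aKG and control depend on scaling. The median of the 80 genes between the Apc Min groups became 0.06 with TMM and 0.05 with median-of-ratios scaling. Rpl11, not called between the Apc Min groups, is an example of the order of the 74 genes: 211 RPKM in WT, 371 in control and 314 with DM-aKG as medians (DM-aKG minus control -0.31 ± 0.12, adjusted p = 0.0517, limma).

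**Figure D3:**
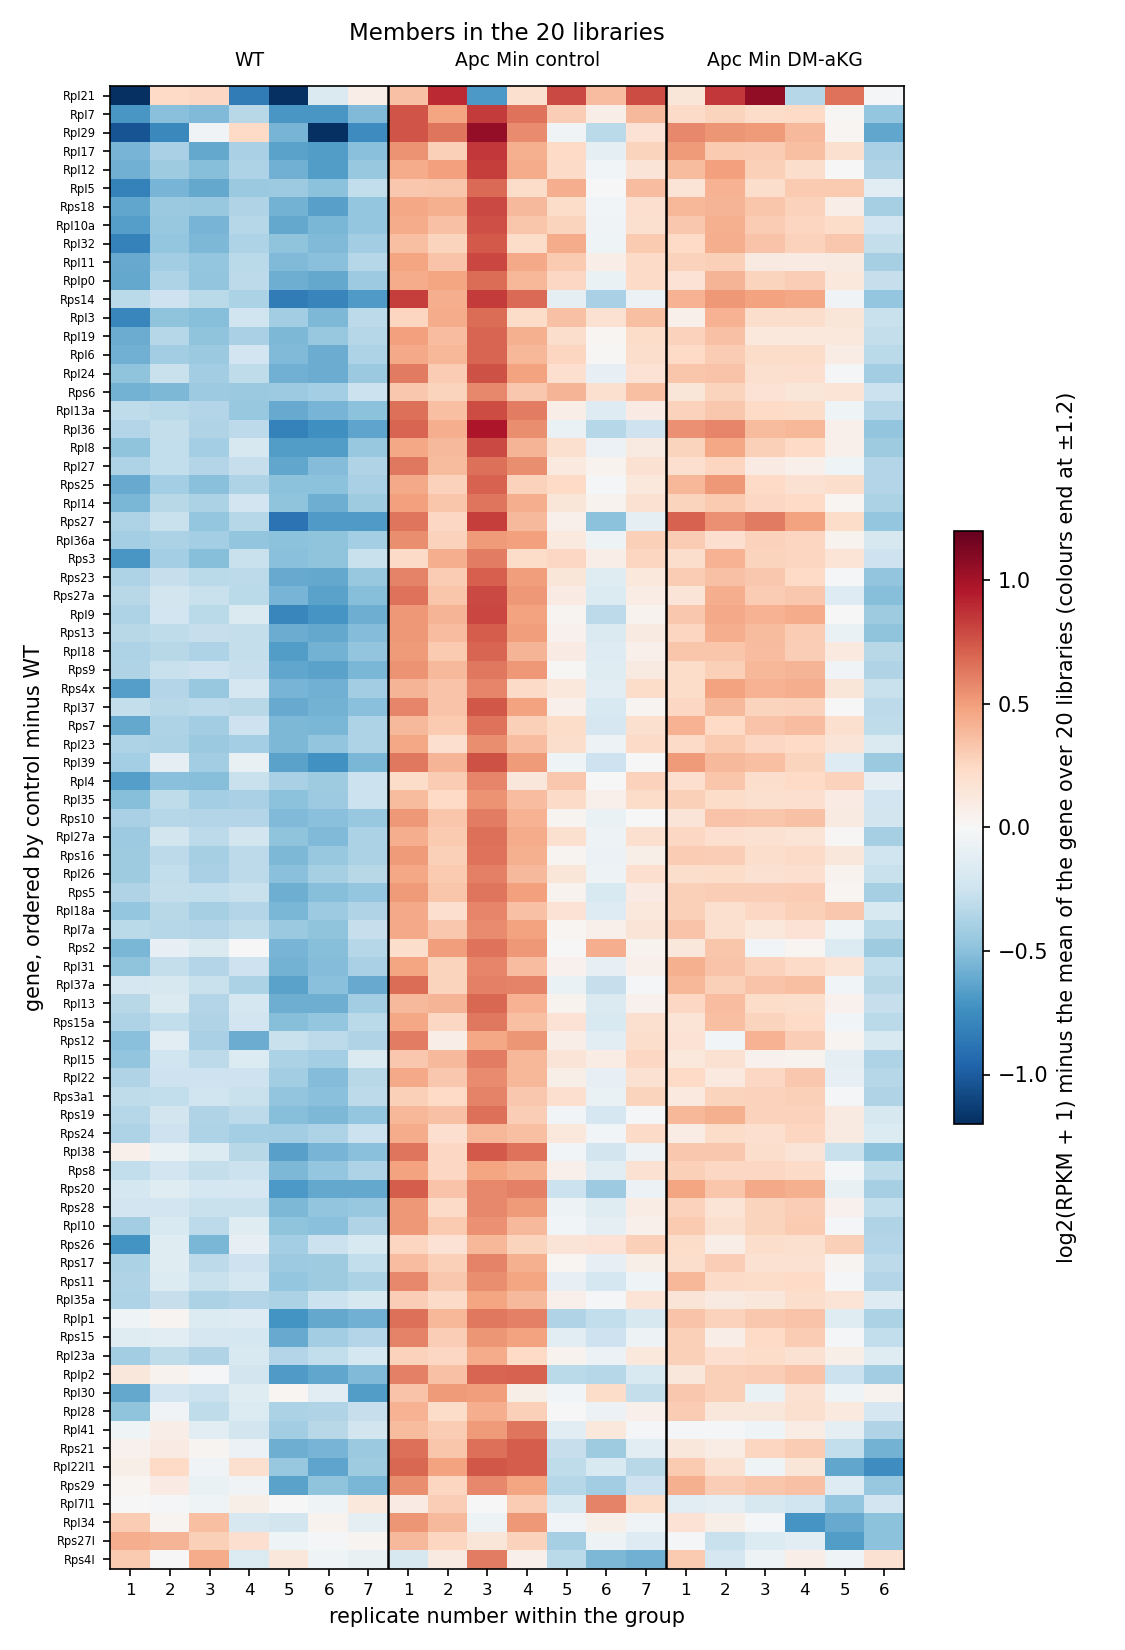
Values of the 80 tested genes (rows, ordered by control minus WT) in the 20 libraries (columns, by group and replicate number), as log2(RPKM + 1) minus the mean of the gene over 20 libraries. Colours run from -1.2 (blue) to 1.2 (red). Most rows are blue across WT and red in control replicates 1 to 4, and the lowest rows, with Rps4l, Rps27l, Rpl34 and Rpl7l1, do not follow.

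The genes moved together from library to library. Pearson's r of a gene with the median of the other tested members over the 20 libraries had a median of 0.968, and 63 of 80 genes exceeded 0.9. These points share library depth and group, so the values describe the set and carry no test. Only 5 genes were under 0.5: Rps27l (-0.09), Rps4l (-0.00), Rpl7l1 (0.03), Rpl34 (0.17) and Rpl21 (0.50). Relative to the member median of each library, the steadiest gene was Rps16 (SD 0.04 log2 units over 20 libraries), and the most variable were Rpl21 (SD 0.82) and Rps27l (SD 0.51).

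Of the 7 paralogs, 3 were hardly detected. Rpl3l, Rpl10l and Rpl39l were below the filter, beside Rpl3 at 231 ± 27.6 RPKM (SD, n = 7), Rpl10 at 359.7 ± 35.4 RPKM and Rpl39 at 189 ± 33.1 RPKM in WT. Of the other 4, none was called in control against WT, and 1 of the 4 was called against WT with DM-aKG. Their 7 partners all rose in both comparisons with WT, with medians of 0.71 and 0.60. Rpl22, which also binds RNA outside the ribosome, rose by 0.61 ± 0.11 in control (adjusted p = 0.00012, limma), from 40.1 to 63.5 RPKM in the medians.

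Rps27l, a paralog of Rps27 known as a p53 target, had 72.0 to 102 RPKM in WT (median 86.2), 56.7 to 98.2 RPKM in control (median 82.6) and 46.7 to 73.7 RPKM with DM-aKG (median 64.2). It did not pass the test in control against WT (-0.12 ± 0.13, adjusted p = 0.441, limma), and it fell by 0.48 ± 0.13 with DM-aKG against WT (adjusted p = 0.00937). Rps27 had 82.6 to 127 RPKM in WT, 108 to 273 RPKM in control and 111 to 251 RPKM with DM-aKG. It rose by 0.75 ± 0.19 in control (adjusted p = 0.00262) and by 0.88 ± 0.20 with DM-aKG (adjusted p = 0.00226) against WT. The 2 genes of the pair thus differed in opposite directions with DM-aKG.

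The ratio of Rps27l to Rps27 was 0.805 ± 0.0539 (SD, n = 7) in WT, 0.450 ± 0.115 (n = 7) in control and 0.318 ± 0.0810 (n = 6) with DM-aKG. WT libraries lay between 0.713 and 0.871, control libraries between 0.302 and 0.662, and DM-aKG libraries between 0.262 and 0.479. Every WT library lay above every Apc Min library. The ratio was lower by a log2 difference of -0.88 in control against WT (exact permutation p = 0.000583, the smallest the design allows, adjusted 0.0035) and of -1.37 with DM-aKG against WT (exact permutation p = 0.00117, also the smallest, adjusted 0.0035). The tests of ratios were chosen after the values had been seen, are 2-sided and were adjusted over 12 comparisons of 4 ratios. Between the Apc Min groups the difference was -0.49 (exact permutation p = 0.0268, adjusted 0.0402) and the ranges overlapped. Without DM-aKG replicate 2, 3 or 5 that exact permutation p was 0.0530. With Rps27 and its copy Rps27rt summed as the partner the differences were -0.87, -1.36 and -0.49.

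Rpl7l1 had 13.3 to 15.1 RPKM in WT (median 13.8), 12.03 to 21.3 RPKM in control (median 16.2) and 9.75 to 12.7 RPKM with DM-aKG (median 11.8). Its DM-aKG libraries were all below its WT libraries, although the adjusted p was 0.0609 (limma). Relative to Rpl7, it fell from 0.0419 in WT to 0.0238 in control (log2 difference -0.88, exact permutation p = 0.00233, adjusted 0.00559) and 0.0226 with DM-aKG (-0.91, exact permutation p = 0.00117, adjusted 0.0035). Rps4l, a retrocopy of the X-linked Rps4x, had mean levels of 20.1 RPKM in WT, 17.8 in control and 19.4 with DM-aKG, beside 342, 565 and 562 RPKM for Rps4x. Its ratio to Rps4x was 0.0598 in WT, 0.0311 in control (-0.93, exact permutation p = 0.00117, adjusted 0.0035) and 0.0361 with DM-aKG (-0.74, exact permutation p = 0.00932, adjusted 0.0186).

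Rpl22l1 was the only tested paralog above its partner. It had 51.3 to 94.8 RPKM in WT, 63.1 to 135 RPKM in control and 47.3 to 99.4 RPKM with DM-aKG, and was not called in any comparison by the 3-group fit (adjusted p = 0.116, 0.198 and 0.955 for control against WT, DM-aKG against control and DM-aKG against WT, limma). Fits that took account of the 2 sets of replicates (1 to 4 and 5 to 7) did call it. In a model with a mean for each group and set, Rpl22l1 was lower with DM-aKG than in control in both sets (-0.51 and -0.41, adjusted p = 0.00119 and 0.0215), and higher in control than in WT in replicates 1 to 4 (0.54, adjusted p = 0.000254) but not called in 5 to 7 (0.23, adjusted p = 0.108). Control against WT was also called with the set as a factor, the replicate block, array weights, quantile normalization or scaling without Rn45s and haemoglobin genes (adjusted p = 0.000198 to 0.0373). Its ratio to Rpl22 was 1.83 ± 0.342 (SD, n = 7) in WT, 1.60 ± 0.338 in control and 1.38 ± 0.235 (n = 6) with DM-aKG, and DM-aKG against WT was the comparison past the threshold (-0.41, exact permutation p = 0.0233, adjusted 0.04). Without DM-aKG replicate 5 or 6 that exact permutation p was 0.0505. In each group, replicates 1 to 4 held the higher ratios.

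**Figure D4:**
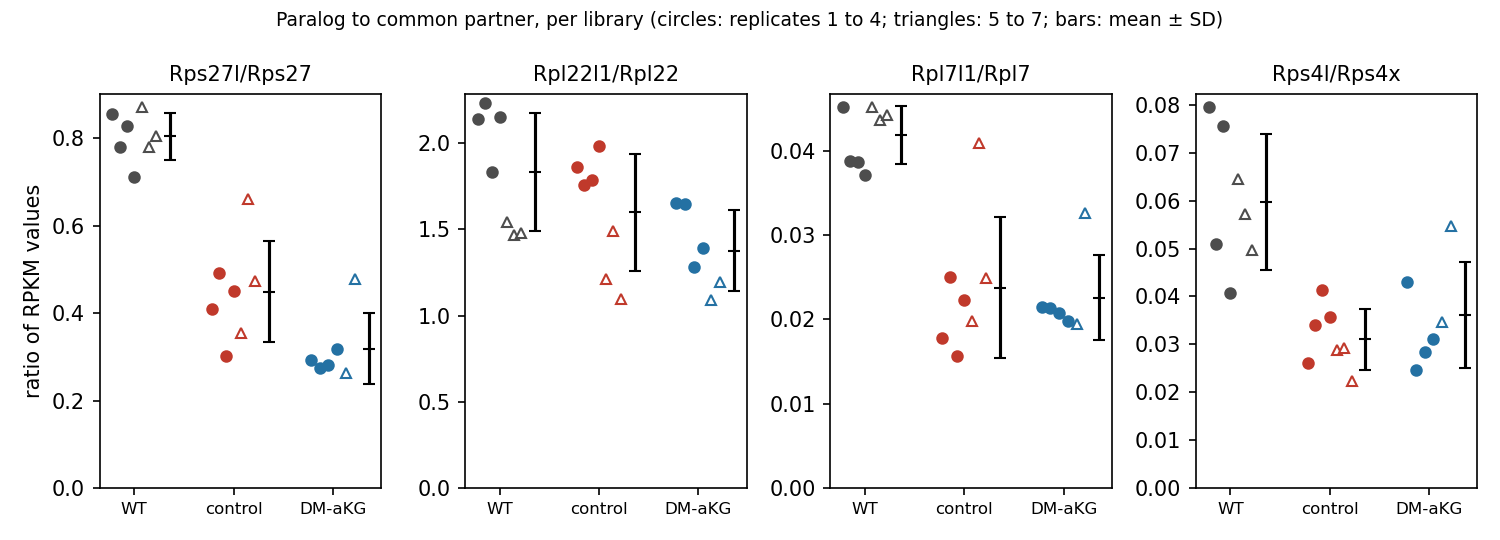
Ratio of RPKM of each tested paralog to its common partner (vertical axes, from 0) in the 20 libraries, by group, with bars at mean ± SD and circles for replicates 1 to 4, triangles for 5 to 7. The Rps27l to Rps27 ratio lies at 0.713 to 0.871 in WT and at 0.662 or less in all Apc Min libraries.

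Replicates 1 to 4 and 5 to 7 formed 2 sets that differed in the ribosomal RNA precursor Rn45s, a split taken over from an earlier look at these data. Rn45s was 3839 to 6558 RPKM in replicates 1 to 4 and 2716 to 3006 RPKM in 5 to 7 of WT, with 3836 to 5458 and 1078 to 3621 in control and 4857 to 5512 and 1585 to 2090 with DM-aKG. With scaling to genes outside Rn45s and haemoglobin, 77 of the 80 genes were called higher in control against WT (5665 of all genes). With DM-aKG against WT 71 were higher (2610 of all genes) and 1 lower, and with DM-aKG against control 10 were lower (3388 of all genes). The part of Rn45s on its own in the results was not tested. The share of summed RPKM held by the 84 genes was 5.04% and 4.77% in the 2 sets of WT, 8.93% and 7.51% in control, and 7.72% and 6.60% with DM-aKG. In a model with a mean for each group and set, control against WT gave medians of 0.80 and 0.53 with 75 and 70 genes called higher. DM-aKG against WT gave 0.62 and 0.34, with 71 and 19 called higher and 1 lower in each. DM-aKG against control gave -0.20 and -0.19 with 11 and 6 called lower. The medians of all genes were 0.19 and 0.20 for control against WT and 0.10 and -0.02 for DM-aKG against WT. For DM-aKG against control they were -0.11 and -0.21, below which the 80 genes lay only in replicates 1 to 4. The share of all genes called within each set was not computed. The difference between sets was called in 0 of the 80 genes in each comparison (limma, smallest adjusted p = 0.392). Among all genes tested it was called in 26 for DM-aKG against control, 0 for control against WT and 0 for DM-aKG against WT. The counts of 0 therefore do not set the 80 genes apart from other genes, nor show that both sets differed alike. At an unadjusted limma p under 0.05 the 80 genes gave 1 for DM-aKG against control, 21 for control against WT and 6 for DM-aKG against WT.

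Of the ribosomal protein genes named above as outside the pattern, Rpsa (laminin receptor, small subunit) rose in control against WT by 0.68 ± 0.10 (adjusted p = 1.14e-05, limma), from 161 to 260.1 RPKM in the means. Fau (0.38 ± 0.21, adjusted p = 0.117) and Rpl36al (0.12 ± 0.10, adjusted p = 0.295) were not called. Rpl36al, the autosomal partner of Rpl36a, fell with DM-aKG against control by 0.47 ± 0.10 (adjusted p = 0.00158), and it was below WT as well (-0.35, adjusted p = 0.0123). The first of these calls was lost under TMM scaling (adjusted p = 0.0677).

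Other genes of the translation machinery whose mRNAs carry TOP motifs were followed as a list. Of its 18 tested genes, 18 rose in control against WT (median 0.70), 12 rose with DM-aKG against WT (median 0.52), and 6 fell with DM-aKG against control (median -0.19). Over all genes 43.2%, 21.9% and 27.6% were called in these directions, and the share of the list that fell with DM-aKG was near the last of these. Eef1a1, which delivers aminoacyl-tRNA to the ribosome, went from 1379 ± 166 RPKM (SD, n = 7) in WT to 2372 ± 364 RPKM in control and 2249 ± 281 RPKM (n = 6) with DM-aKG. It rose by 0.78 ± 0.12 in control (adjusted p = 1.83e-05, limma). Eef2, the translocase, rose by 0.91 ± 0.12 in control and 1.03 with DM-aKG against WT (adjusted p = 2.43e-06 and 5.5e-06). Pabpc1, the poly(A)-binding protein, rose in control by 0.73 ± 0.12 and was lower with DM-aKG than in control (-0.58 ± 0.13, adjusted p = 0.00165), as was Eef1g (-0.44 ± 0.12, adjusted p = 0.00633). The call of Eef1g was lost with TMM (-0.23, adjusted p = 0.0967) and median-of-ratios scaling (-0.24, adjusted p = 0.0899), and that of Pabpc1 with mean smooth muscle gene level as a covariate (-0.46, adjusted p = 0.0604).

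Lists of Myc family, nucleolar and ribosome assembly genes gave other counts than the ribosomal proteins in the treatment comparison. On a list of Myc family and nucleolar genes, 11 of 15 rose (background 43.2%) and 3 fell (background 15.7%) in control against WT. With DM-aKG against control, 10 of 15 fell (median -0.44, background 27.6%). Myc itself was at 5.36 ± 2.30 RPKM in WT, 13.1 ± 3.61 in control and 7.08 ± 1.14 with DM-aKG. It rose by 1.19 ± 0.20 (adjusted p = 5.09e-05, limma) in control and fell by 0.77 ± 0.21 with DM-aKG (adjusted p = 0.00743). The fall was not called with replicates 1 to 4 only (-0.52) or with mean smooth muscle gene level as a covariate (-0.65, adjusted p = 0.109 in both). Nop56, of the box C/D snoRNP, fell by 0.87 ± 0.21 with DM-aKG (adjusted p = 0.0032, and 0.0609 with replicates 5 to 7 only), and Npm1 (also on the TOP list) by 0.52 ± 0.11 (adjusted p = 0.00163). The 3 that fell in control were Max, Mxi1 and Mxd1, Myc's partner and antagonists. Max was close to the threshold (-0.30 ± 0.13, adjusted p = 0.0495) and was not called in 17 of the 20 fits that left out a library.

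A list of assembly factors and chaperones of ribosomal proteins had 14 tested genes: 11 rose in control against WT (background 43.2%), 8 fell with DM-aKG against control (median -0.33, background 27.6%), and 0 were called with DM-aKG against WT (background 21.9% higher and 17.3% lower). Brix1, Rpf2 and Rrs1 act in assembly of the large subunit, the latter 2 by placing the 5S particle that holds Rpl5 and Rpl11. With DM-aKG against control Brix1 fell by 0.52 ± 0.11, Rpf2 by 0.67 ± 0.14 and Rrs1 by 0.71 ± 0.15 (adjusted p = 0.00092, 0.00129 and 0.00132, limma). With replicates 1 to 4 only the adjusted p of Brix1 was 0.0669 and that of Rrs1 0.0530. Rpl5 itself was at -0.12 ± 0.11 in that comparison (adjusted p = 0.411). Nap1l1, a nucleosome assembly protein on this list, fell by 0.89 ± 0.13 (adjusted p = 2.25e-05). Sympk, a polyadenylation scaffold, was put on the list by mistake and was not taken out. Among 12 regulators of mTOR and TOP mRNAs, 4 rose (background 43.2%) and 2 fell (background 15.7%) in control against WT and 2 fell with DM-aKG against control (background 27.6%), shares below or close to those of all genes. The 2 were Eif4e (-0.45 ± 0.10, adjusted p = 0.00121, and 0.0678 with replicates 1 to 4 only) and Eif4ebp1 (-0.50 ± 0.17, adjusted p = 0.0322). The call of Eif4ebp1 was lost with TMM (-0.30, adjusted p = 0.225), median-of-ratios (-0.32, adjusted p = 0.215) and quantile scaling (-0.34, adjusted p = 0.138), and in the fits of the 2 groups alone, of replicates 5 to 7 and with the smooth muscle covariate (adjusted p = 0.0516, 0.165 and 0.161). Its adjusted p was 0.0587 to 0.0734 without control replicate 1, 3 or 4 or DM-aKG replicate 1, 4, 5 or 6. Whether these lists differ from the ribosomal protein genes was not tested.

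Cell type markers differed between the same groups. Over all genes, 43.2% were called higher and 15.7% lower in control against WT. The shares were 21.9% and 17.3% with DM-aKG against WT, and 5.91% and 27.6% with DM-aKG against control. All 8 smooth muscle genes fell in control against WT and all 8 rose with DM-aKG against control. Their summed RPKM was 987 to 1703 in WT, 402 to 1367 in control and 879 to 1593 with DM-aKG, with means of 1274, 764 and 1303. Control, where the ribosomal protein genes were highest, thus had the lowest mean, while WT and DM-aKG were close and 0 of the 8 genes were called between them. With mean smooth muscle gene level as a covariate, 72 of the 80 genes were called higher in control against WT and 68 with DM-aKG against WT, while 2, Rpl7l1 and Rps27l, were called lower with DM-aKG against control. The shares of all genes above are from the fit without the covariate, and those with the covariate are not given here. All 4 leukocyte genes fell in both Apc Min groups against WT (summed RPKM 41.5 to 73.5 in WT, 13.6 to 51.3 in control and 13.3 to 35.1 with DM-aKG). Of 6 fibroblast genes 5 rose in control against WT and 4 fell with DM-aKG against control. All 3 red cell genes rose in both Apc Min groups against WT (medians 1.76 in control and 2.31 with DM-aKG), the direction of the ribosomal protein genes, with summed RPKM of 9.42 to 33.7 in WT, 5.68 to 199 in control and 40.3 to 258 with DM-aKG. Of 4 tested plasma cell genes 3 fell in both (medians -1.80 and -1.61), with summed RPKM of 267 to 783 in WT, 92.4 to 198 in control and 139 to 273 with DM-aKG. Of 4 Paneth genes, Lyz1, Defa22 and Defa24 fell in control against WT and rose with DM-aKG against control, and Mmp7 did the opposite. Their summed RPKM was 1473 to 11574 in WT, 654 to 6687 in control and 3768 to 13034 with DM-aKG. Of 6 epithelial genes 1 rose and 3 fell in control against WT, 1 rose and 4 fell with DM-aKG against control, and 4 fell with DM-aKG against WT, with summed RPKM of 4290 to 5931 in WT, 3032 to 4649 in control and 2091 to 3234 with DM-aKG. Of 9 proliferation genes 0 were called in control against WT, 4 fell with DM-aKG against control and 5 fell with DM-aKG against WT. No marker was at 0 in all libraries. The smooth muscle covariate itself differed between the groups, so in that fit smooth muscle content and group cannot be fully told apart. The part of the other cells in the results was not tested.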

How the data were processed

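The authors deposited 1 table of 24795 genes in 20 libraries, read here as RPKM, since its values are not whole and their sums differ between libraries. The submitters' processing notes name the mm10 genome and the tools CASAVA 1.8, HISAT2 2.0.4 and Partek. Not given in the sources used here are the annotation, the strand setting and the handling of multi-mapping reads. RPKM divides by the library total, so a large change in a few genes moves all others. Low values came within 0.1 of a whole read in only 66.4 to 71.7% of 756 to 905 genes (20% if evenly spread), so no count test was run.

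Groups and replicate numbers came from the labels. After the filter (1 RPKM or more in 6 or more libraries), log2(RPKM + 1) was fitted with limma 3.58.1 in R 4.3.3 (trend and robust settings, 3 groups, statmod 1.5.0). The pseudocount makes changes of low genes look smaller. TMM factors were computed on the RPKM table. Single ratios were tested by exact permutation in scipy 1.17.1, copies were found with blastn 2.17.0, and figures were drawn with matplotlib 3.10.9. Simulated data with planted changes were used to test the limma step. The members and lists were chosen with earlier results of these data known. Values are given for the 5 highest and 5 lowest members by mean RPKM, up to 6 called members with the smallest adjusted p in each comparison and direction, paralogs with their partners, and fixed members; other members and listed genes were named after their values were seen. Alternatives varied scaling, filter, pseudocount, weights, covariates and libraries. A listed gene is not reported here.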

Additional observations from a re-analysis of the deposited data

Results flagged for a closer look

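There were 120 groups of values, each a named gene, a paralog ratio or the summed share within a group of libraries. Of these, 13 held a library whose gap to the nearest other library was large for the range of the group by Dixon's criterion. Chance gives about 1 in 20 for independent groups. These genes moved together across libraries, so the 13 cannot be set against that rate. DM-aKG replicate 6 was the flagged library in 9 of the 13. It was the lowest of its group for Rps26 (437 RPKM, next 591), Rps6 (246 RPKM, next 327), Rpl11 (221 RPKM, next 313), Rpl10a (227 RPKM, next 310.3), Rpl4 (437 RPKM, next 539), Rpl23 (252 RPKM, next 318) and Rpl32 (385 RPKM, next 555). It was the highest for the ratio of Rps27l to Rps27 (0.479, next 0.319) and of Rpl7l1 to Rpl7 (0.0327, next 0.0215). Control replicate 6 was the highest of its group for the latter ratio (0.0409, next 0.0250). WT replicate 1 was the lowest for Rpl32 (267 RPKM, next 322). The remaining values were at very low levels: Rpl39l at 0.0923 RPKM in DM-aKG replicate 1, with all others of the group at 0, and Rpl32l at 1.33 RPKM in DM-aKG replicate 4 (next 0.747).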

How the results depend on the processing

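Control against WT kept 58 to 77 genes called higher under every alternative (70 to 75 with single libraries left out). The count called lower, 0, became 2 with TMM and with median-of-ratios scaling and 1 with replicates 5 to 7 only, and was 0 to 1 with single libraries left out (1, Rps4l, without control replicate 3). DM-aKG against WT kept 66 to 73 genes higher (63 to 71 with single libraries left out), except with replicates 5 to 7 only, where 0 were called with 3 and 2 libraries a group. The count lower, 1, became 2 with TMM, median-of-ratios, quantile normalization, array weights and the 2 groups alone, 0 with replicates 5 to 7 only, and 1 to 2 with single libraries left out (2 without control replicates 5 or 6). For DM-aKG against control, the 9 genes lower became 0 with TMM and median-of-ratios scaling, 17 with quantile normalization, 2 with the 2 groups alone, 25 with the set of replicates as a factor, 2 with replicates 5 to 7 only, 2 with the smooth muscle covariate and 2 to 10 with single libraries left out; 1 gene, Rps4l, was called higher with replicates 5 to 7 only. The cause was not tested.

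Same-numbered libraries showed no regular pairing, with correlations of -0.46 to 0.60 over 19 pairs, 8 of them over 0.1. Only 4 of 20 libraries correlated best with their own number. Whether some libraries were paired was not tested. With the replicate block, 19 genes were called lower for DM-aKG against control, 76 higher for control against WT and 73 higher for DM-aKG against WT.

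Differences that changed sign were uncalled ones. Rpl34 in control against WT became -0.041 with TMM, -0.037 with median-of-ratios and -0.11 with quantile normalization, Rpl7l1 -0.056 and -0.052 with the first 2, and Rps27l 0.10 with the smooth muscle covariate. For DM-aKG against control, the log2 ratio of Rpl7l1 to Rpl7 became 0.070 with replicates 1 to 4 only and ran from -0.15 to 0.11 with single libraries left out (positive without DM-aKG replicate 4 or 5 or control replicate 6), and that of Rps4l to Rps4x became -0.12 with replicates 1 to 4 only. Ratio alternatives and the summed partner were chosen after seeing the data. RPKM gives no counting interval, so precision rests on the number of libraries.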
